A study of Nothobranchius furzeri with 42 samples.

Results

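Liver was compared with caudal fin muscle within the same animals, over all genes of the count table. The comparison used the 9 liver and 9 muscle libraries of 9 African turquoise killifish (Nothobranchius furzeri), which are 18 of the 42 libraries in the series. Libraries were assigned to tissue and fish from their titles, without use of any measured value, and each liver library was set against the muscle library of the same fish. All fish were females of the short-lived GRZ strain, kept at 28 °C and 19 weeks old at sampling. From 16 weeks of age, 5 of them had lived for 3 weeks in water with 10 µM alendronate, a bisphosphonate that inhibits bone resorption, and 4 in water with distilled water added as placebo. Both arms contributed both tissues, so the drug was balanced within every pair. Each fish is called by its arm and a number.

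The liver is the main source of plasma proteins, and in egg-laying females it also makes the yolk precursor vitellogenin. Its hepatocytes therefore devote much of their messenger RNA to secreted proteins. Skeletal muscle fibres instead devote much of theirs to contractile proteins and to the enzymes that supply them with energy. Both are textbook cases of tissues in which few genes supply much of the RNA. The files pair no gene ID with a name, and 0 of the 25475 IDs matched the gene table at hand. Individual genes are therefore given by Ensembl ID or by rank, and the labelled tissues could not be checked against known markers.

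Total counts ran from 22285977 to 33890627 in liver libraries and from 22171430 to 35717250 in muscle libraries. Each of the 18 libraries had its closest match, by correlation, in its own tissue. Pearson r across genes was 0.917 to 0.981 within tissues and 0.295 to 0.428 between them, and no 2 libraries held identical counts. In every fish the serial number of the liver library came directly before that of the muscle library, so tissue and this order cannot be told apart. Reads were counted per gene without regard to gene length, so a gene with many counts may be long as well as abundant. In whole pieces of tissue, fewer cells of a type and less RNA per cell cannot be told apart.

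Liver counts were concentrated in far fewer genes than muscle counts. The 10 most counted genes of a library held 50.95% ± 6.67 of its counts in liver and 27.9% ± 1.89 in muscle (SD, n = 9 each). The lowest, median and highest libraries stood at 38.2%, 52.7% and 57.4% in liver, against 24.4%, 27.9% and 31.2% in muscle. The groups did not overlap, and liver was higher in 9 of 9 fish. The difference within fish averaged 23.0 percentage points ± 5.85 (SD) and ran from 11.2 to 28.5, with an exact sign-flip permutation p of 0.00391 (two-sided, n = 9). This is the smallest p that 9 pairs can give, and it was 0.00456 after Benjamini-Hochberg adjustment over 21 tests.

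The single most counted gene took 18.5% ± 2.37 of liver counts and 4.99% ± 0.615 of muscle counts (SD, n = 9 each). It ranged from 13.5% to 20.9% in liver and from 4.22% to 6.05% in muscle. The gap between tissues was 13.5 percentage points for 1 gene, 23.0 for 10, 11.8 for 100 and 6.84 for 1000. The 100 most counted genes held 69.8% ± 4.24 of counts in liver and 58.0% ± 3.18 in muscle, and the 1000 most counted held 88.0% ± 2.35 in liver and 81.2% ± 1.78 in muscle (SD, n = 9 each). Each of these differences was positive in 9 of 9 fish, at the same smallest possible exact permutation p of 0.00391. Part of the size came from the single most counted gene. When the most counted gene of each library was left out, the gap was 5.90 percentage points for 1 gene, 15.2 for 10 and 7.21 for 100, with the same exact permutation p of 0.00391. The widest 95% Wilson interval of such a share in 1 library reached 0.0214 percentage points to either side, which covers counting error only.

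**Figure D1:**
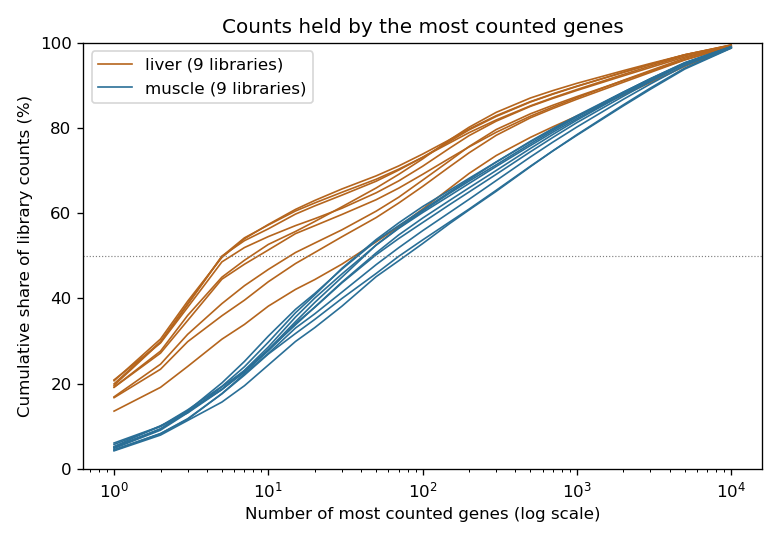
Cumulative share of library counts (%) against the number of most counted genes (log scale), with 1 line for each of the 9 liver libraries and each of the 9 muscle libraries; the dotted line marks 50%. At 10 genes the liver lines stand between 38.2% and 57.4% and the muscle lines between 24.4% and 31.2%, and they draw together towards 1000 genes.

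On average 12.3 ± 10.3 genes were needed to hold 50% of the counts in liver, against 51.7 ± 14.8 genes in muscle (SD, n = 9 each). The lowest, median and highest libraries needed 6, 8 and 37 genes in liver, and 37, 48 and 78 genes in muscle. Alendronate fish 1 supplied the liver library with 37. Its muscle needed 71, so liver needed fewer genes than muscle in 9 of 9 fish (exact permutation p = 0.00391, n = 9). To hold 90% of the counts, liver needed 1456 ± 557 genes and muscle 2719 ± 323 genes (SD, n = 9 each). This last measure was not tested.

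The effective number of genes is the exponential of the Shannon entropy of the shares. It gives how many equally counted genes would spread the counts as evenly. It was 202.0 ± 96.1 in liver and 652 ± 119 in muscle (SD, n = 9 each), lower in liver in 9 of 9 fish (exact permutation p = 0.00391, n = 9). Liver ran from 127 to 423 and muscle from 533 to 857. The most evenly spread liver library lay below the least evenly spread muscle library.

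Over all genes, fewer were detected in liver than in muscle, with a call that rested on single fish. After thinning each library to 22171430 counts, 18777 ± 576 genes had at least 1 count in liver and 19543 ± 509 in muscle (SD, n = 9 each). Liver was lower in 8 of 9 fish, with a mean difference of -766 genes (exact permutation p = 0.0352, adjusted p = 0.0369). The difference within fish ran from -1962 to 713 genes. Placebo fish 4 was the fish with more genes detected in liver (19171) than in muscle (18458). The exact permutation p was 0.0703 without alendronate fish 2, without alendronate fish 3, or without placebo fish 1, 2 or 3 in turn. It was 0.0391 without alendronate fish 1, 4 or 5 in turn, and 0.00781 without placebo fish 4. Over the genes that passed filterByExpr, a filter on low counts, the mean difference was -294 genes, at the smallest possible exact permutation p of 0.00391. The size of the difference thus depended on this filter. The filter was set by tissue on these same libraries. A gene high in 1 tissue alone could pass it and then count as undetected in the other. The p after filtering is therefore no separate support for the difference. The 10 most counted genes took 50.95% of counts in liver and 27.9% in muscle. At equal totals fewer counts were therefore left for the other genes in liver, so detection is not separate from concentration. How much of the difference this accounts for was not tested.

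**Figure D2:**
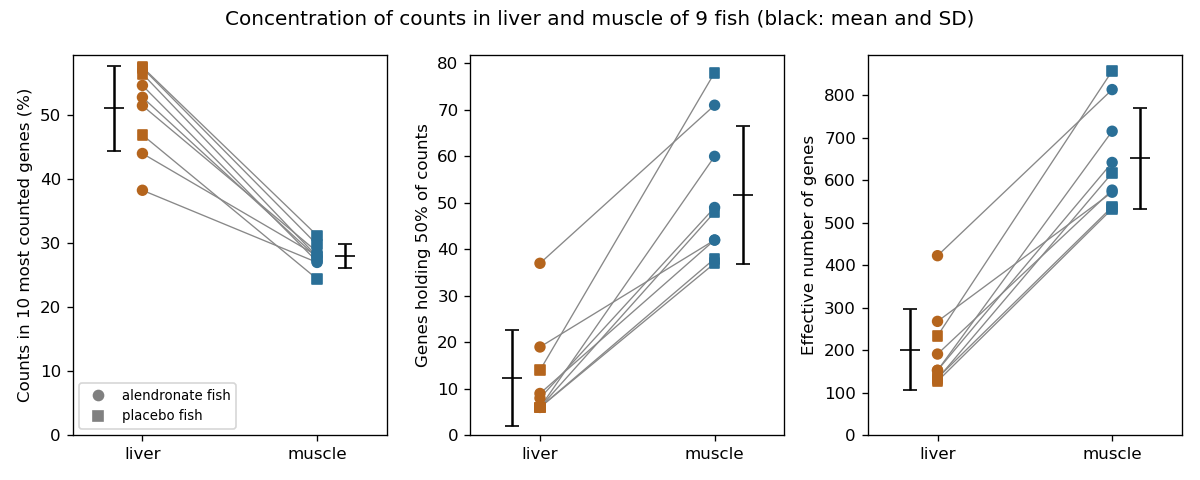
Share of counts in the 10 most counted genes (%), number of genes holding 50% of counts, and effective number of genes, in liver and muscle, with a line for each of the 9 fish; circles are alendronate fish, squares placebo fish, and black bars the mean and SD. Liver lies above muscle in the first panel and below it in the other two for every fish.

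Heart, the third tissue sampled in all 9 fish, put both values in context. Its 10 most counted genes held 14.4% ± 2.33 of counts, and its effective number of genes was 2162 ± 375 (SD, n = 9). Liver exceeded heart by 36.6 percentage points and muscle exceeded heart by 13.6 in the first measure, each in 9 of 9 fish (exact permutation p = 0.00391, adjusted p = 0.00456). For the single most counted gene, muscle (4.99%) exceeded heart (4.54%) in 7 of 9 fish, which did not pass (exact permutation p = 0.125).

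The leading gene was the same in all 9 livers but not in all muscles. The 9 liver libraries shared 1 first-ranked gene, and 7 genes stood among the first 10 of every liver library, out of 13 that appeared there in any. In muscle, 4 different genes ranked first in at least 1 library, 6 stood among the first 10 in every library, and 16 appeared there in any. The liver and muscle lists had little in common. By mean share, 1 gene was among the first 10 of both tissues, 16 among the first 100 of both, and 356 among the first 1000 of both.

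The gene common to both lists of 10 had rank 10 in liver and rank 2 in muscle. It held from 0.836% to 1.53% of liver counts and from 2.06% to 5.22% of muscle counts, so the tissues did not overlap. The fitted log2 change was -1.30, standard error 0.25 (adjusted p = 3.20e-04, edgeR). The 16 genes common to the lists of 100 together held 4.35% of liver counts and 12.1% of muscle counts. Of these 16, 5 were higher in liver, 9 were lower and 2 did not pass, with log2 changes between -1.94 and 2.13. The files do not say what these genes encode, or whether they belong to the nuclear or the mitochondrial genome.

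Most genes differed in level between liver and muscle. Of 15761 genes tested with edgeR, with fish as a block, 11712 passed an adjusted p of 0.05 (74.3%). Of these, 5693 were higher in liver (36.1% of the genes tested) and 6019 were lower (38.2%). The direction was the same in 9 of 9 fish for 4259 of the higher and 4694 of the lower genes, together 76.4% of the calls. The calls were made on these same fish, so this share is no separate support. Log2 changes are relative to TMM scaling, which equalises the typical gene between libraries. The median over all genes tested was -0.02. Scaling by library totals alone moved this median to -0.63, and then 3587 genes were higher and 8492 lower in liver, so the balance of directions rests on the scaling.

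Against a minimum fold, the calls were fewer and again near balance. A change of more than 2-fold was called for 6386 genes (40.5%), 3119 higher in liver (19.8%) and 3267 lower (20.7%). With library totals alone these were 2151 higher and 5000 lower. A change of more than 10-fold was called for 2035 genes (12.9%), 1009 higher in liver (6.4%) and 1026 lower (6.51%). All but 1 of the 2035 had the same direction in 9 of 9 fish, which follows largely from calls made on those fish. At the other end, the 95% interval of the change lay within 2-fold in both directions for 4850 genes (30.8%), with 1818 of them still called at an adjusted p of 0.05. A further 4525 genes were neither called beyond 2-fold nor bounded within it.

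Large differences were called more often among genes with higher mean levels over the 2 tissues. A change of more than 10-fold was called for 7.38% of the 1544 genes under 1 CPM (counts scaled to a common library total by TMM), 9.12% of the 7699 genes from 1 to 10 CPM and 14.1% of the 5656 genes from 10 to 100 CPM. It was called for 46.4% of the 756 genes from 100 to 1000 CPM and for 65.1% of the 106 genes at 1000 CPM or more. In that highest class 33 were more than 10-fold higher in liver, 36 were lower, and 2 of the 106 lay within 2-fold. A gene high in 1 tissue has a high mean, so part of this order follows from how the classes were formed. Low counts also make a call harder to reach. With no fold limit, edgeR called 55.6% of genes under 1 CPM and 98.1% of those at 1000 CPM or more.

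**Figure D3:**
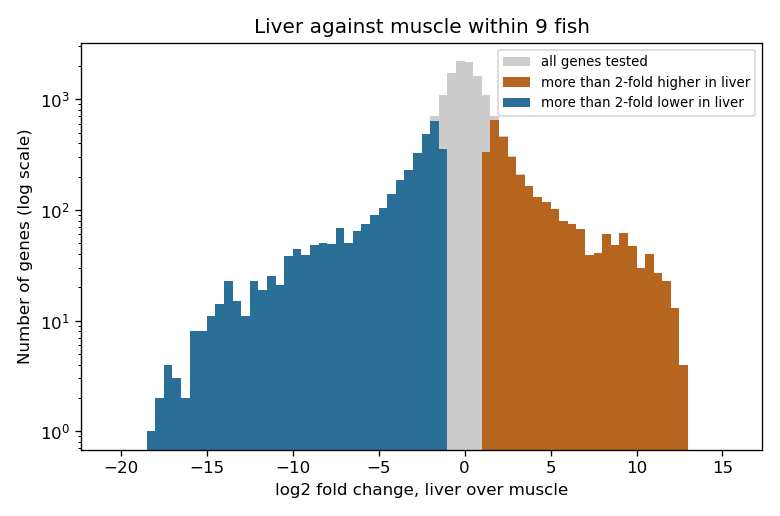
Number of genes (log scale) by fitted log2 fold change of liver over muscle, in bins of 0.5; grey bars are all 15761 genes tested, and coloured bars the genes called more than 2-fold higher in liver (3119) or lower in liver (3267). The side lower in liver reaches below -15, and the side higher in liver ends near 13.

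The largest folds were not symmetric. Among genes called at an adjusted p of 0.05 with edgeR, 1239 were at least 10-fold higher in liver by the fitted value and 1309 at least 10-fold lower. At 1000-fold or more, 139 were higher and 231 were lower. The same asymmetry appeared at a count of 0. Of 8667 genes whose liver mean reached 5 CPM, 1 had no count in any muscle library. Of 8435 genes whose muscle mean reached 5 CPM, 58 had no count in any liver library. Fitted folds of genes at or near 0 depend on the small count added in the fit and give no bound. The TMM factor was also lower in liver than in muscle in every fish, while library totals covered similar ranges. The same CPM thus tended to stand for fewer counts in liver, where a count of 0 was easier to reach. How much of the asymmetry in zeros or in the largest folds this accounts for was not tested.

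Genes called more than 10-fold apart mostly had their highest mean in the higher of the 2 tissues, also against heart, spleen and kidney. Of the 1009 genes more than 10-fold higher in liver, liver had the highest mean of the 5 tissues for 903 (89.5%), kidney for 79, heart for 16 and spleen for 11. Of the 1026 genes more than 10-fold lower in liver, muscle had the highest mean for 894 (87.1%), heart for 100, and spleen and kidney for 16 each. The 4850 genes within 2-fold were spread over the tissues. Spleen was highest for 26.2% of them, heart for 26.0%, muscle for 19.1%, liver for 15.9% and kidney for 12.8%. Choosing genes beyond 10-fold left the lower of the 2 tissues highest for 0 of them. The shares of 89.5% and 87.1% thus partly follow from that choice. Shares over all genes tested were not taken. These are descriptions of the means and were not tested.

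The most counted gene that was higher in liver was ENSNFUG00015025346, which ranked first in every liver library. It had 109407, 265978 and 304660 CPM in the lowest, median and highest liver library, against 8.05, 56.0 and 715 CPM in muscle. The tissues did not overlap, and relative to their level the muscle libraries were spread more widely than the liver libraries. The fitted log2 change was 12.13, standard error 0.95 (adjusted p = 7.56e-08, edgeR). Alendronate fish 3 had the highest muscle value, at 715 CPM, and the next was placebo fish 3 at 97.01 CPM. Without alendronate fish 3 the log2 change was 12.54.

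ENSNFUG00015021002 was named because its smallest ratio over the 9 fish was the largest among genes at 100 CPM or more in liver. It had 63.2, 109 and 192 CPM in the lowest, median and highest liver library. In muscle it had 10 counts over all 9 libraries and none in 5 of them, with a highest value of 0.141 CPM. Alendronate fish 3 supplied 5 of the 10. The fitted log2 change was 11.67, and 12.30 without that fish. The summed levels gave a ratio of 3586, with an exact 95% interval from 1949 to 7479 that covers counting error only, and the change passed in edgeR (adjusted p = 5.09e-11, higher in 9 of 9 fish). The rank by smallest ratio favours genes near 0 in muscle, and this gene ranked 643rd by counts in liver.

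In the other direction, ENSNFUG00015007012 had the highest mean in muscle. It had 0, 0.0472 and 1.57 CPM in the lowest, median and highest liver library, and 21536, 36322 and 52017 CPM in muscle. The whole liver group held 58 counts of it, of which 45 came from alendronate fish 4, while 3 liver libraries had none. The fitted log2 change was -18.23, standard error 0.90 (adjusted p = 6.55e-10, edgeR), and -19.00 without alendronate fish 4. Its summed level in muscle was 122564 times that in liver (exact 95% interval from 94810 to 161408, counting error only).

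ENSNFUG00015003834 was the gene with the largest smallest ratio at 100 CPM or more in muscle. It had 2 counts over the 9 liver libraries, with 7 libraries at 0. Muscle held 1517, 2469 and 3003 CPM in the lowest, median and highest library. It was lower in liver in 9 of 9 fish (adjusted p = 4.59e-12, edgeR). With 2 counts the ratio of summed levels, 232653, has an exact 95% interval from 64405 to 1921090.

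The leading liver genes were detectable in every muscle library, in amounts that varied between fish. Leaving out the gene common to both lists, the first 10 liver genes gave 9 genes, which together held 36.4% to 56.1% of liver counts. In the muscle of the same fish they held 0.252% of counts in alendronate fish 3, where the 95% Wilson interval was 0.251% to 0.254%. They held 0.00331% in placebo fish 1, with an interval of 0.00308% to 0.00355%. The other 7 fish lay between 0.00354% and 0.0388%. Each of the 9 genes had counts in each of the 9 muscle libraries.

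In ppm of their share in the liver of the same fish, these genes stood at 5003 ppm in the muscle of alendronate fish 3, at 1067 ppm in alendronate fish 1 and at 58.9 ppm in placebo fish 1, with a median of 354 ppm over the 9 fish. The 9 genes lay close together in the fish with the highest sums. In alendronate fish 3 they ran from 3272 to 7219 ppm, and in alendronate fish 1 from 838 to 1567 ppm. They lay further apart in placebo fish 1, from 29.7 to 564 ppm. The highest gene was 1.87 times the lowest in the most even muscle library and 19.0 times the lowest in the least even. The source of these counts in muscle was not tested.

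Heart showed another order of fish. The same 9 genes stood at 5798 ppm in the heart of alendronate fish 3, the highest of both tissues, but at 3285 ppm in the heart of placebo fish 1, which had the lowest muscle value. The median over the 9 hearts was 684 ppm.

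The leading muscle genes were much scarcer in liver. The corresponding 9 genes held 21.2% to 28.2% of muscle counts. In terms of that share they stood at 9.70 to 78.0 ppm in the liver of the same fish, with a median of 15.3 ppm. The highest values came from alendronate fish 4, at 78.0 ppm, and placebo fish 4, at 52.9 ppm. Of 81 combinations of these genes with a liver library, 16 had no count, against 0 of 81 for the liver genes in muscle. In 9 of 9 fish the value of liver genes in muscle exceeded that of muscle genes in liver, a description without a test.

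**Figure D4:**
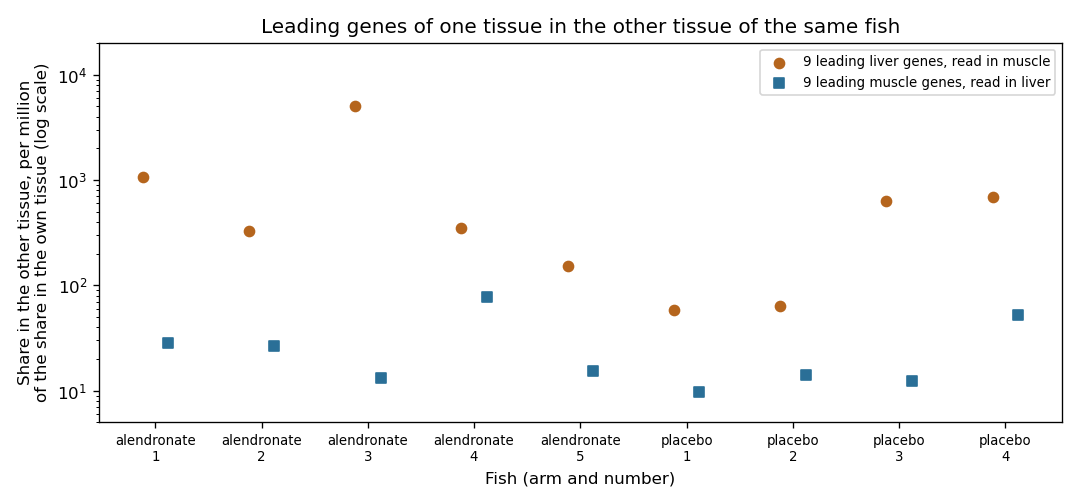
Summed share of the 9 leading genes of 1 tissue in the other tissue of the same fish, in ppm of their summed share in their own tissue (log scale), for 9 fish. Liver genes read in muscle (circles) run from 58.9 in placebo fish 1 to 5003 in alendronate fish 3, and muscle genes read in liver (squares) from 9.70 to 78.0.

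The tissues were also compared in each arm alone with edgeR, and the 2 arms share no library. Over the same 15761 genes, 10470 passed in the 5 alendronate fish (66.4%), 5126 higher in liver (32.5%) and 5344 lower (33.9%). In the 4 placebo fish 9632 passed (61.1%), 4664 higher in liver (29.6%) and 4968 lower (31.5%). Both arms called 8620 genes, which is 82.3% of the alendronate calls and 89.5% of the placebo calls, and 8619 of these had the same direction. Of the alendronate calls, 86.3% had the same direction in 4 of 4 placebo fish. Across genes, the log2 changes of the 2 arms had a Pearson r of 0.974 and a Spearman rho of 0.943. Genes are not independent replicates, and the values share the scaling of the 18 libraries.

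Classes set in the alendronate fish alone were then read in the placebo fish. The 1264 genes called at least 10-fold higher in liver held 73.5% ± 2.42 of liver counts and 0.348% ± 0.0727 of muscle counts in placebo fish (SD, n = 4 each). Liver libraries ran from 69.96% to 75.1% and muscle libraries from 0.258% to 0.436%. The 1250 genes called at least 10-fold lower in liver held 0.163% ± 0.0320 of liver counts and 53.5% ± 2.35 of muscle counts in placebo fish (SD, n = 4 each).

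The concentration measures were then taken again without the genes of both classes. In placebo fish this took out 73.5% of liver counts with the first class and 53.5% of muscle counts with the second. The gene common to both lists of 10 had a fitted log2 change of -1.30 over all fish, inside the 10-fold limit. The values that follow thus describe the remaining genes and depend on that choice. In placebo fish the 10 most counted of the remaining genes held 13.2% ± 1.17 of the remaining counts in liver and 23.8% ± 5.65 in muscle (SD, n = 4 each), lower in liver in 4 of 4 fish. The effective number of remaining genes was 1683 ± 159 in liver and 1339 ± 419 in muscle, higher in liver in 3 of 4 fish. The number of remaining genes that held 50% of the remaining counts went the other way, at 180 ± 35.9 in liver and 204 ± 80.2 in muscle, lower in liver in 3 of 4 fish. The 100 most counted held 42.5% in liver and 42.3% in muscle, higher in liver in 2 of 4 fish. With 4 fish an exact paired test cannot pass, so none of these was tested.

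**Figure D5:**
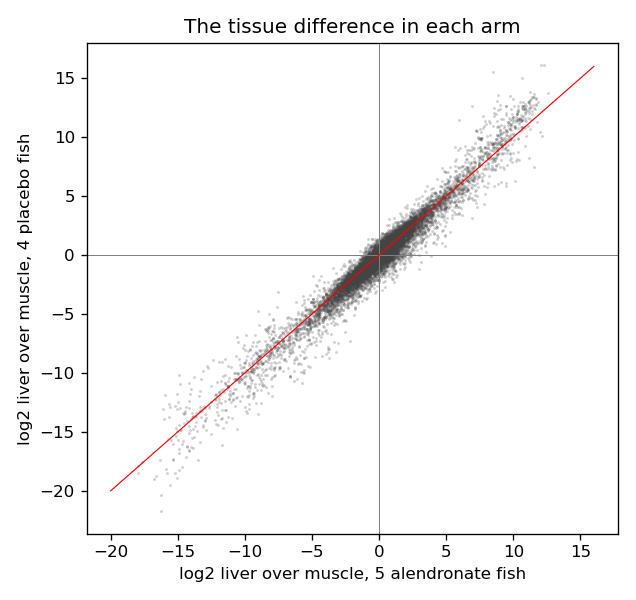
Fitted log2 fold change of liver over muscle in the 5 alendronate fish (horizontal) and in the 4 placebo fish (vertical), with 1 point for each of 15761 genes; the red line marks equal values. The points mostly run along the line, with a Pearson r of 0.974. Genes with almost no counts in 1 tissue can lie off it. An example is ENSNFUG00015021002, at 10.64 in alendronate fish and 14.98 in placebo fish.

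No gene passed the test of whether liver over muscle differed between alendronate and placebo. In edgeR the term for tissue by arm called 0 of 15761 genes (0%), and the lowest adjusted p was 0.569. At an unadjusted p of 0.05 it picked out 1306 genes, and a uniform p would pick out 788. Without placebo fish 4 it picked out 2104, with a smallest adjusted p of 0.0770, and without placebo fish 1 it picked out 870, each with 0 calls. DESeq2 called 4 genes, for 1 of which liver over muscle was higher with placebo and for 3 lower with placebo.

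The concentration of counts gave no call between arms either. The difference in the share of the 10 most counted genes, liver minus muscle, was 20.5 percentage points ± 6.71 in alendronate fish (SD, n = 5) and 26.2 ± 2.65 in placebo fish (SD, n = 4), and the exact permutation p was 0.159 (adjusted p = 0.6 over 7 measures). Alendronate fish ran from 11.2 to 27.5 and placebo fish from 22.5 to 28.5. With 5 and 4 fish the exact p cannot fall below 0.0159, and 1 of 7 measures at that value alone would miss the adjusted threshold.

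Levels varied more between the libraries of different fish in liver than in muscle. After removal of arm means, the median standard deviation over fish was 0.42 log2 CPM in liver and 0.35 in muscle over the 15761 genes, and 63.4% of genes had the larger spread in liver. Over the 3863 genes at 10 CPM or more in both tissues it was 0.30 in liver and 0.25 in muscle. Genes with a large tissue difference had the wider spread in the tissue where they were low. The 326 genes more than 10-fold higher in liver, at 100 CPM or more there, had a median of 0.42 in liver and 1.11 in muscle. The 279 genes more than 10-fold lower in liver, at 100 CPM or more in muscle, had 0.68 in liver and 0.35 in muscle. Low counts vary more on a log scale, and these medians are descriptions without a test.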

How the data were processed

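The authors deposited raw counts: whole numbers of reads for each Ensembl ID, not normalized, in 1 table. Per the submitters' processing notes, which give no roles, the tools were STAR 2.7.10b, SAMtools 1.13, Trim Galore 0.6.10, FastQC 0.12.1, MultiQC 1.28, bcl2fastq and CASAVA. Not given in the sources used here: the counting program, strand setting, genome build and annotation. Overlapping, antisense and near-identical genes are therefore uncertain. Nothing states how many tanks held the fish. P-values measure how the difference between tissues within a fish varied from fish to fish.

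Genes were kept by filterByExpr, scaled by TMM and tested with edgeR 4.0.16 in R 4.3.3 (quasi-likelihood F test, robust, terms for fish and tissue), and glmTreat gave the tests against 2-fold and 10-fold. P-values were two-sided, with Benjamini-Hochberg adjustment over all genes tested and a threshold of 0.05. TMM factors ran from 0.639 to 1.24 in liver and from 1.13 to 1.44 in muscle. The highest of 5 tissues was found with factors from all 42 libraries. Standard errors were the absolute log2 change divided by the square root of its F value, and the 95% intervals were built from them. For 8 genes F was too near 0 for a standard error, and these were not counted as within 2-fold. The fit was tested on data simulated from a mean profile common to both tissues, without fish effects. That setting lacks the real difference in composition between the tissues. Concentration measures were compared by exact sign-flip permutation (SciPy 1.17.1). Titles give the fish. The deviations of liver and muscle from their arm means correlated within a fish with a mean r of 0.135 (from -0.02 to 0.348). Between fish the mean r was -0.02, but removing arm means by itself makes that mean slightly negative. It is therefore no independent comparison. The best match was the same fish in 6 of 9 fish.

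The rule for IDs without a name was, in each direction, the called gene with the highest mean CPM and the one with the largest smallest ratio over fish at 100 CPM or more. Lists of tissue markers matched no ID and were not used. The comparison and its rules were chosen with earlier results of these data known. Other scalings, filters, tools, a fit without the block and fits without each fish were run as alternatives.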

Additional observations from a re-analysis of the deposited data

Results flagged for a closer look

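Of 48 groups of 4 or 5 libraries examined, Dixon's test on gaps picked out an extreme library in 9. Chance would pick out about 1 in 20, or 2.4, if the values of each group were normally distributed, which was not checked. Some of the 48 groups had no count in any library and could not be picked out, which makes 2.4 too high. Other groups held tied whole numbers, such as 14 genes against 6 in each other placebo liver. Others held skewed values close to no count, such as 1.57 CPM with 0.112 as the next. Such groups can be picked out more often, which makes 2.4 too low. Whether 9 exceeds chance is therefore not settled. Values of 1 library depend on each other, so those of 1 fish are not separate events, and no explanation was tested.

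The liver of placebo fish 4 accounted for 5 of them. Its 10 most counted genes held 46.8% of counts (next placebo liver 56.4%) and its 100 most counted genes 67.8% (next placebo liver 73.1%). It needed 14 genes for 50% of its counts, against 6 in each other placebo liver. Its effective number of genes was 234 (next placebo liver 135). The leading muscle genes stood at 52.9 ppm of their muscle share in that liver (next placebo liver 14.0). It was extreme among placebo livers only. The 10 most counted genes held 38.2% in the liver of alendronate fish 1 and 43.9% in that of alendronate fish 4. These livers needed 37 and 19 genes for 50% of counts, with effective numbers of genes of 423 and 268. The leading muscle genes stood at 78.0 ppm in the liver of alendronate fish 4.

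In alendronate fish 3, ENSNFUG00015025346 stood at 715 CPM in muscle (next 94.8 among alendronate fish), and the 9 leading liver genes at 5003 ppm of their liver share (next 1067). In the liver of alendronate fish 4, ENSNFUG00015007012 stood at 1.57 CPM (next 0.112 among alendronate fish). The leading muscle genes stood there at 78.0 ppm (next 28.6 among alendronate fish).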

How the results depend on the processing

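Of the summary values recomputed under the alternatives, 240 kept their direction and their side of the threshold or their size within 1.5 times, 6 moved further, 5 lost a call and 1 gained calls. For the 4 named IDs all 80 recomputed log2 changes kept sign and call. These IDs were chosen for their calls and large changes in the same libraries, so this is no separate support. With library totals alone, 3587 genes were called higher in liver, 9606 of the 11712 calls were kept and 29 turned round, and 5000 genes were more than 2-fold lower. A limit of 10-fold in place of 2-fold gave 2035 calls, 1009 higher and 1026 lower. In placebo fish alone, 2879 genes had an interval within 2-fold. DESeq2 called 4 genes for tissue by arm. The fit with no replicate block called 11753 genes and kept 11442 of the paired calls. Without each fish in turn, calls ran from 11294 to 11671, higher from 5529 to 5727, lower from 5747 to 5985, calls beyond 2-fold from 6177 to 6420, and genes within 2-fold from 4559 to 4745. The difference in genes detected after thinning ran from -950.5 to -616 and missed the threshold in 5 of these 9 fits. Each arm alone was too small for the exact test, so its concentration values carry none. With 10 counts or fewer in the lower tissue, as for 2 of the named IDs, depth limits the size of a fold.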
